A study of Mus musculus with 48 samples.

Results

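The genes described here are the 10 that set the timing of entry into mitosis through cyclin B and Cdk1, taken by symbol from 55421 genes in the count table: Ccnb1, Ccnb2 and Ccnb3, Cdk1, the inhibitory kinases Wee1, Wee2 and Pkmyt1, and the phosphatases Cdc25a, Cdc25b and Cdc25c. All 10 were found, once each. They were measured by Smart-seq2, which copies polyadenylated RNA, in whole mouse embryos at the 2-cell stage, collected 26 to 28 hours after fertilization from the strain labelled C57BL6. Of 24 embryos labelled WT and 24 labelled K49A, the name of a substitution of 1 amino acid in the sperm packing protein protamine 1, 12 WT and 17 K49A libraries held at least 100000 counts and were compared. The labels name no promoter, treatment or litter, do not name the parent that carried the substitution, and add the word dot to 3 K49A titles, all 3 among the libraries compared. Each embryo was counted as 1 replicate. Nothing says that the embryos came from separate parents, so a p-value here reflects spread among the embryos sampled. Plate rows 1 to 4 held WT embryos and rows 5 to 8 K49A embryos, so row and group cannot be told apart.

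Cdk1 is the kinase that drives cells into mitosis, and it works only when bound to a cyclin. B-type cyclins accumulate before division and are destroyed at its end. Wee1, Wee2 and Pkmyt1 add inhibitory phosphates to Cdk1, and the Cdc25 phosphatases remove them, so the balance between these enzymes sets when a cell divides. In mouse oocytes this switch holds the long prophase arrest, and its transcripts are stored for use after fertilization. At the 2-cell stage the stored transcripts are being cleared while the embryo's own genome starts to be transcribed.

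Promoters of Cdk1 and its 2 more abundant cyclin partners, Ccnb1 and Ccnb2, are shown because these genes encode the complex itself. In dividing cells their transcription is known to depend on CCAAT boxes, bound by NF-Y, and on the cell cycle homology region (CHR), with the core TTTGAA. Each sequence is the 250 bases before the RefSeq start on GRCm38.p6, read 5′ to 3′ along the gene's strand. Capitals mark the CCAAT box, the CHR core or its variant with the letters TTTAAA, on either strand, none of which overlap here.
Ccnb1, minus strand, chr13:100786487-100786736: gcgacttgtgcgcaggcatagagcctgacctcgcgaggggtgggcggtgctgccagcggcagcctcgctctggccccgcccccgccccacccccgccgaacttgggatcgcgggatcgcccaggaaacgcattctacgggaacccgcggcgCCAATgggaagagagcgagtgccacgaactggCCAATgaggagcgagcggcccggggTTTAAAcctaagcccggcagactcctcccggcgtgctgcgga
Ccnb2, minus strand, chr9:70421555-70421804: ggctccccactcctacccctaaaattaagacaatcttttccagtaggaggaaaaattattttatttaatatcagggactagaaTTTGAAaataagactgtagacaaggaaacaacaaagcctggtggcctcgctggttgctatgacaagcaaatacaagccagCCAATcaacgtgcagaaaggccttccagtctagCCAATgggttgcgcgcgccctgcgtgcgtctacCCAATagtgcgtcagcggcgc
Cdk1, minus strand, chr10:69352913-69353162: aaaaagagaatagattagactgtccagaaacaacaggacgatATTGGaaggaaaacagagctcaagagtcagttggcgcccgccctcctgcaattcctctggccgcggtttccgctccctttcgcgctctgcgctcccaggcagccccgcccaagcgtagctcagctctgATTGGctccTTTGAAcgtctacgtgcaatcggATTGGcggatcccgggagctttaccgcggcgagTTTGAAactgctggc
CCAAT occurred 2 times before Ccnb1, 3 times before Ccnb2 and 3 times before Cdk1, and 33.8% of 32851 promoters of the same length held it at least once. TTTGAA occurred 2 times before Cdk1 and 1 time before Ccnb2 (16% of promoters), while Ccnb1 held TTTAAA (12.1% of promoters) 42 to 37 bases before its start. Of the 10 genes, 7 had a promoter in the table. Among the other 4 of these, CCAAT occurred 1 time before Wee2, 2 times before Cdc25a, 1 time before Cdc25b and 0 times before Ccnb3. Ccnb3 held TTTAAA 2 times, and none of these 4 held TTTGAA. These matches are letters in a window and were not tested as binding sites. Some RefSeq starts differ from the GENCODE gene positions given below. By those positions the Wee2 window, chr6:40442613-40442862, lies inside the gene, and the Ccnb1 and Cdk1 windows reach into theirs.

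The libraries held 421301 to 5309505 counts in WT (median 3787533) and 105627 to 4947276 in K49A (median 4034654). Deeper libraries, those reaching both 1000000 counts and 12000 genes detected, numbered 10 in WT and 14 in K49A. The remaining 5 were WT replicates 5 and 10 and K49A replicates 3, 14 and 22. Both transcript classes of this stage were present: 19 of 20 listed oocyte genes and 27 of 29 genes of 2-cell activation passed the low-count filter. Of the markers of cumulus cells, blood cells and sperm, 3 of 15, 4 of 9 and 1 of 9 passed, and 0, 3 and 4 were at 0 in every library. All 8 that passed had positive fold changes in K49A, with median log2 values of 2.08, 2.37 and 1.76 for the 3 lists. By edgeR 0 were called, and an unadjusted p under 0.05 was reached by 2 of 3 cumulus, 4 of 4 blood and 0 of 1 sperm markers. Over all 12456 genes tested, 7.73% reached it and 41.6% had negative fold changes. Summed blood markers ran from 13.5 to 54.5 CPM in WT (median 22.5) and from 7.76 to 734 CPM in K49A (median 87.6). Summed cumulus markers ran from 0 to 37.5 CPM in WT (median 18.7) and from 1.55 to 181 CPM in K49A (median 36.1). Summed sperm markers ran from 1.12 to 38.7 CPM in WT (median 3.68) and from 0 to 231 CPM in K49A (median 4.14). CPM are counts per 1000000 after scaling between libraries.

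Compared per transcript length, in TPM (transcripts per 1000000), Ccnb1 had the highest median of the 10 genes in both groups. The cyclin B1 transcript ranged from 50.2 to 1581 TPM in WT with a median of 963 (n = 12), and from 18.6 to 1701 TPM in K49A with a median of 716 (n = 17). Cdk1 came next, with medians of 446 TPM in WT and 179 in K49A. Wee2, the Wee1 paralog known for its role in oocytes, followed at 99.5 TPM in WT and 137 in K49A. Then came Pkmyt1, a kinase anchored in membranes, at 71.5 and 55.6 TPM, Cdc25c at 54.0 and 42.8, Ccnb2 at 46.7 and 30.2, and Cdc25b at 24.3 and 24.1. Cdc25a, at 8.71 and 13.7 TPM, Wee1, at 6.65 and 4.15, and Ccnb3, at 0.355 and 0.730, were lowest. The order of the medians was the same in both groups.

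Neighbours in that order were compared within embryos, as differences in log2(TPM + 1), with a 2-sided exact sign-flip permutation test and Benjamini-Hochberg adjustment over 18 tests. The order came from medians of the same libraries, so the pairs and their directions were picked from the values tested. Ccnb1 exceeded Cdk1 in 11 of 12 WT embryos, by 1.18 ± 0.96 (SD, adjusted p = 0.00586, exact permutation test), and in 15 of 17 K49A embryos, by 1.5 ± 1.66 (adjusted p = 0.00165, exact permutation test). Wee2 exceeded Pkmyt1 in 11 of 12 WT and 14 of 17 K49A embryos (adjusted exact permutation p = 0.00628 and 0.00683). Pkmyt1, Cdc25c, Ccnb2 and Cdc25b formed a run whose neighbours did not differ beyond their spread: adjusted exact permutation p ran from 0.697 to 0.989 in WT and from 0.227 to 0.919 in K49A. In the deeper libraries Ccnb2 lay above Cdc25b in WT (1.16, adjusted exact permutation p = 0.0160). Cdk1 exceeded Wee2 in 11 of 12 WT embryos (adjusted exact permutation p = 0.00977) but in 11 of 17 K49A embryos (adjusted exact permutation p = 0.307); the difference between groups in this gap was not tested. Cdc25b and Cdc25a differed in WT (1.62 ± 1.77, adjusted exact permutation p = 0.00586) and not beyond the threshold in K49A (0.80 ± 1.47, adjusted exact permutation p = 0.0741; 1.18 and 0.0113 in the deeper libraries). Cdc25a against Wee1 passed in K49A (adjusted exact permutation p = 0.00268) and not in WT (0.178). Wee1 exceeded Ccnb3 in all 12 WT and in 15 of 17 K49A embryos (adjusted exact permutation p = 0.00268 and 0.00165). In WT 0.000488 is the smallest unadjusted p that this test allows.

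**Figure D1:**
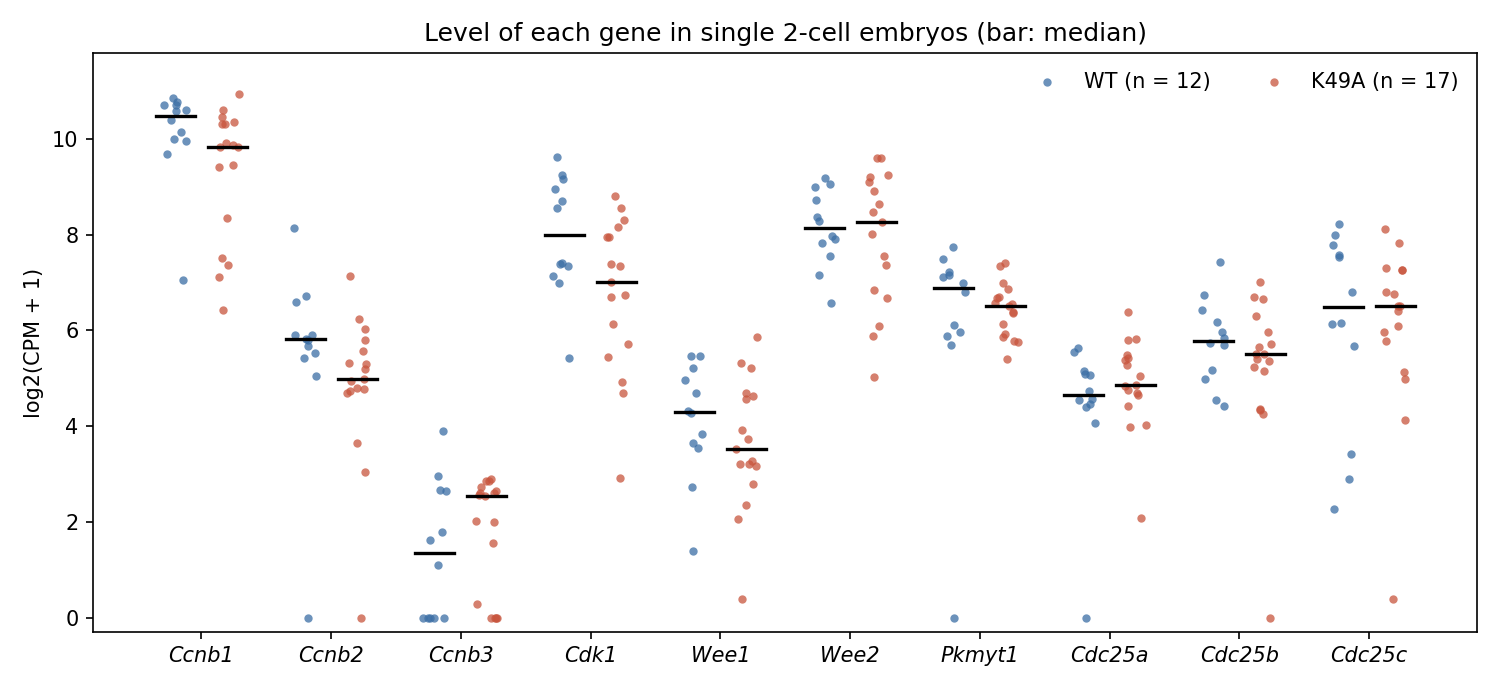
Level of the 10 genes as log2(CPM + 1) on the vertical axis, with 1 point per embryo in the 12 WT and 17 K49A libraries and a bar at each group's median. The groups overlap for each of the 10 genes, which was not counted over all genes. CPM are not adjusted for transcript length, so heights are read between groups and not between genes.

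None of the 10 genes was called different between K49A and WT, by edgeR's quasi-likelihood test adjusted over all 12456 genes tested. Over all of these genes 2 were called, 0.0161%. All 10 genes passed the low-count filter. An unadjusted p under 0.05 was reached by 1 of the 10, Cdk1, against 963 of all genes tested (7.73%). DESeq2 and limma voom also called 0 of the 10, against 77 and 40 of all 12456 genes. In them 2 and 3 of the 10 were at an unadjusted p under 0.05. The share of all genes at that limit was not counted for these methods. Fold changes were negative for 7 and positive for 3 of the 10, with a median log2 fold change of -0.28, while 41.6% of all genes tested were negative and their median was 0.11. The 2 groups overlapped for each of the 10. The share of all genes tested whose groups overlap was not counted, so this is no trait of the 10. Each library is a whole embryo labelled 2-cell, and counts were scaled between libraries. A difference in total RNA per embryo is therefore not measured here.

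The kinase gene Cdk1 (ENSMUSG00000019942, chromosome 10, 69335146 to 69352938, minus strand, GRCm38) had the most negative fold change of the 10. Its levels ran from 41.9 to 784 CPM in WT, with a median of 274, and from 6.52 to 449 CPM in K49A, with a median of 128. The 4 highest embryos were all WT, the 3 lowest all K49A, and 13 of 17 K49A embryos lay below the WT median. The log2 fold change was -1.02 ± 0.46 (SE, 95% interval -1.96 to -0.09), with an unadjusted p of 0.0306 and an adjusted p of 0.552 in edgeR. Within the 5 plate columns that held both groups, K49A means of log2(CPM + 1) were below WT means in 5, by differences from -2.08 to -0.11. WT replicate 19, at 141 CPM, was in a column without a compared K49A library and entered none of the 5. In the deeper libraries the log2 fold change was -0.75. Of the 3 lowest K49A embryos, replicates 3 and 22 were outside the deeper libraries, and replicate 4 was among the deepest, with 4585539 counts. Summed markers of blood cells and cumulus cells had higher medians in K49A, 87.6 against 22.5 CPM and 36.1 against 18.7 CPM. Their part in the Cdk1 difference was not tested.

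Among the cyclins, Ccnb1 (ENSMUSG00000041431, chromosome 13, 100778650 to 100786570, minus strand) encodes the B-type cyclin that mouse embryos need to divide. It ran from 132 to 1865 CPM in WT, with a median of 1438, and from 85.1 to 1955 CPM in K49A, with a median of 918. Of 17 K49A embryos, 15 lay below the WT median, yet 1 exceeded every WT embryo. The log2 fold change of Ccnb1 was -0.57 ± 0.39 (95% interval -1.37 to 0.24, adjusted p = 0.834, edgeR). It was negative in 5 of 5 plate columns, from -3.41 to -0.06 in mean log2(CPM + 1).

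Embryos were split at the widest gap between neighbours in the order of Ccnb1 levels, in log2(CPM + 1). Any set of levels has such a gap, and whether this one is wide for a gene was not tested. Of the 29 embryos, 6 held 325 CPM or less and 23 held at least 685 CPM. The 6 were WT replicate 19 and K49A replicates 3, 8, 14, 15 and 22, and 3 of them were among the deeper libraries. Their totals ran from 105627 to 2124573 counts. Activation scores of 5 of the 6 lay below both group medians, 5.77 in WT and 5.09 in K49A. They were 4.68 in K49A replicate 8, 3.33 in WT replicate 19 and K49A replicate 14, 2.40 in K49A replicate 3, and 1.58, the lowest of all embryos, in K49A replicate 22. The sixth, K49A replicate 15, had 5.24. The embryo at the K49A median, K49A replicate 18, ranked 12 from the lowest of all 29. Ccnb1 and the activation score correlated at 0.70 over the 29 embryos (Spearman), so the low scores restate that relation. Each score averages log2(CPM + 1) across those genes of a list that passed the filter. The part of depth in this gap was not tested.

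Ccnb2 (ENSMUSG00000032218, chromosome 9, 70407692 to 70421547, minus strand) encodes a second B-type cyclin that can stand in for cyclin B1 in mouse oocytes. It ran from 0 to 282 CPM in WT (median 55.3) and from 0 to 140 CPM in K49A (median 30.7), and 14 of 17 K49A embryos lay below the WT median. The log2 fold change of Ccnb2 was -0.86 ± 0.47 (95% interval -1.82 to 0.11, adjusted p = 0.709, edgeR). WT replicate 20, with 282 CPM, stood above all others, and without it the value was -0.43. Both embryos at 0, WT replicate 10 and K49A replicate 14, were outside the deeper libraries.

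Ccnb3 (ENSMUSG00000051592, chromosome X, 6979652 to 7041619, minus strand), whose product promotes the first meiotic division of mouse oocytes, was scarce. It had at most 31 counts in a library, with a count in 7 of 12 WT and 13 of 17 K49A embryos. Levels ran from 0 to 14 CPM in WT (median 1.6) and from 0 to 6.49 CPM in K49A (median 4.84). The log2 fold change was 0.19 ± 0.71 (95% interval -1.27 to 1.65, adjusted p = 0.986, edgeR), the widest interval of the 10. Pseudogene copies named Ccnb1-ps and Ccnb2-ps had medians of 8.49 and 2.69 CPM, and how reads were divided between each copy and its parent gene is uncertain.

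Ccnb1 supplied nearly all B-type cyclin transcript per length. Its share of the summed TPM of the 3 cyclins had a median of 95% in WT and 94.5% in K49A. The share of Ccnb2 had medians of 4.90% and 5.30%. The lowest Ccnb1 share, 71.7%, belonged to WT replicate 19, one of the 6 embryos low in Ccnb1. The K49A embryos among those 6 ran from 85.3% in replicate 22 to 100% in replicate 14. The ratio of Ccnb1 to Cdk1 in TPM had medians of 2.01 in WT and 2.19 in K49A. It ran from 0.701 to 7.26 in WT and from 0.576 to 122 in K49A, where K49A replicate 4 gave the highest value.

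**Figure D2:**
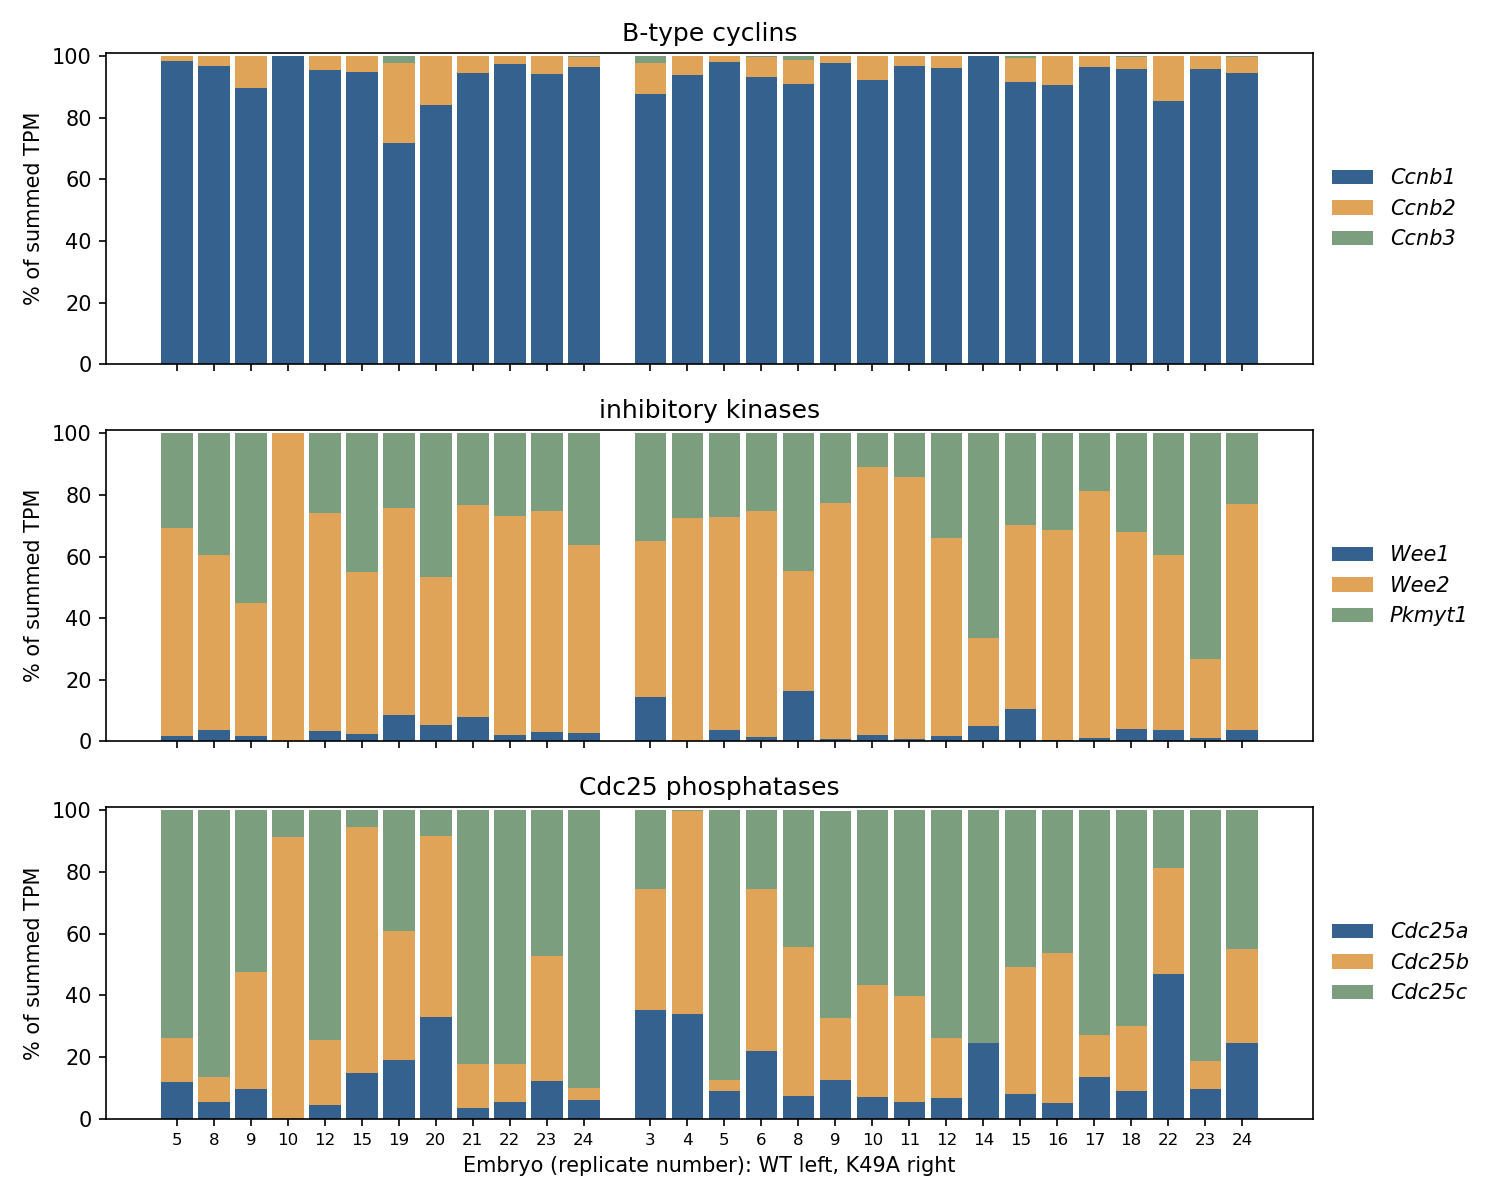
Share of each gene in the summed TPM of its family (percent, vertical axis) for B-type cyclins, inhibitory kinases and Cdc25 phosphatases, with 1 bar per embryo (12 WT left, 17 K49A right, labelled by replicate number). Ccnb1 fills most of every bar in the top panel, while the Cdc25 bars change between mostly Cdc25c and mostly Cdc25b from embryo to embryo.

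For each of the 3 inhibitory kinases, the log2 fold change in edgeR was smaller in size than its SE. Wee2 (ENSMUSG00000037159, chromosome 6, 40439088 to 40466813, plus strand) ran from 93.8 to 585 CPM in WT, with a median of 283, and from 31.8 to 782 CPM in K49A, with a median of 309. The K49A range was wider at both ends, with 4 embryos above and 3 below every WT embryo. Of those 3, replicates 14 and 22 were outside the deeper libraries, with 8 and 7 counts of Wee2, and replicate 23 was among them. In the deeper libraries Wee2 ran from 143 to 532 CPM in WT (n = 10) and from 67.1 to 782 CPM in K49A (n = 14). The log2 fold change of Wee2 was 0.11 ± 0.40 (95% interval -0.71 to 0.93, adjusted p = 0.986, edgeR).

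Pkmyt1 (ENSMUSG00000023908, chromosome 17, 23726336 to 23736735, plus strand) ran from 0 to 214 CPM in WT (median 118) and from 41.2 to 170 CPM in K49A (median 89.6). Its log2 fold change was -0.23 ± 0.38 (adjusted p = 0.955, edgeR). Its spread depended on the libraries taken. The SD of its log2(CPM + 1) was 1.37 over the 29 embryos, where 48.3% of 8648 genes with a mean of at least 10 CPM had a smaller SD, and 0.561 in the deeper libraries, where 8.56% did.

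Wee1 (ENSMUSG00000031016, chromosome 7, 110122046 to 110143286, plus strand), the general kinase of somatic cells, was the scarcest of the 3 kinases. It ran from 1.61 to 43.4 CPM in WT (median 18.7) and from 0.310 to 57.3 CPM in K49A (median 10.5), with at most 142 counts in a library. Its log2 fold change was -0.35 ± 0.48 (adjusted p = 0.942, edgeR). Per length, Wee2 had the largest share of the 3 kinases in 11 of 12 WT embryos (median 67.2%) and in 14 of 17 K49A embryos (median 68.3%). Pkmyt1 had medians of 28.8% and 29.9%, and Wee1 of 2.92% and 2.10%.

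Among the phosphatases, Cdc25c (ENSMUSG00000044201, chromosome 18, 34732993 to 34751533, minus strand), which mice can do without, varied most of the 10 genes. It ran from 3.80 to 298 CPM in WT (median 91.1) and from 0.310 to 276 CPM in K49A (median 90.2). The medians lay close together and the groups overlapped, with 1 K49A embryo below every WT embryo and 1 WT embryo above every K49A embryo. The SD of its log2(CPM + 1) was 1.88 over the 29 embryos, with 89.9% of the 8648 genes below it, and 1.94 in the 24 deeper libraries, with 97.5% below. In WT, 2 deeper libraries, replicates 15 and 20, held 3.80 and 6.47 CPM. The log2 fold change was -0.27 ± 0.53 (95% interval -1.36 to 0.83, adjusted p = 0.969, edgeR).

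Cdc25b (ENSMUSG00000027330, chromosome 2, 131186949 to 131198497, plus strand), which mouse oocytes need to resume meiosis, ran from 20.4 to 171 CPM in WT (median 54.1) and from 0 to 129 CPM in K49A (median 44.3). Its log2 fold change was -0.29 ± 0.40 (adjusted p = 0.941, edgeR). The 171 CPM of WT replicate 10 and the 0 of K49A replicate 14 came from libraries outside the deeper ones. Cdc25a (ENSMUSG00000032477, chromosome 9, 109875579 to 109893895, plus strand), which early mouse embryos require, ran from 0 to 49 CPM in WT (median 24.2) and from 3.24 to 82.5 CPM in K49A (median 28.0). Its log2 fold change was 0.29 ± 0.40 (adjusted p = 0.940, edgeR). For Cdc25a the 0 of WT replicate 10 and the 82.5 CPM of K49A replicate 22, from 10 counts, also lay outside the deeper libraries.

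The phosphatase with the largest share of Cdc25 transcript per length changed from embryo to embryo in both groups. Cdc25c had the largest share in 8 of 12 WT and 11 of 17 K49A embryos, and Cdc25b in 4 and 5. Cdc25a had it in 1 embryo, K49A replicate 22, the library with the fewest counts. The share of Cdc25c ran from 5.50 to 90.2% in WT and from 0.234 to 87.6% in K49A. The share of Cdc25b ran from 3.92 to 91.3% in WT and from 0 to 65.9% in K49A. The 91.3%, in WT replicate 10, and the 0, in K49A replicate 14, came from libraries outside the deeper ones.

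**Figure D3:**
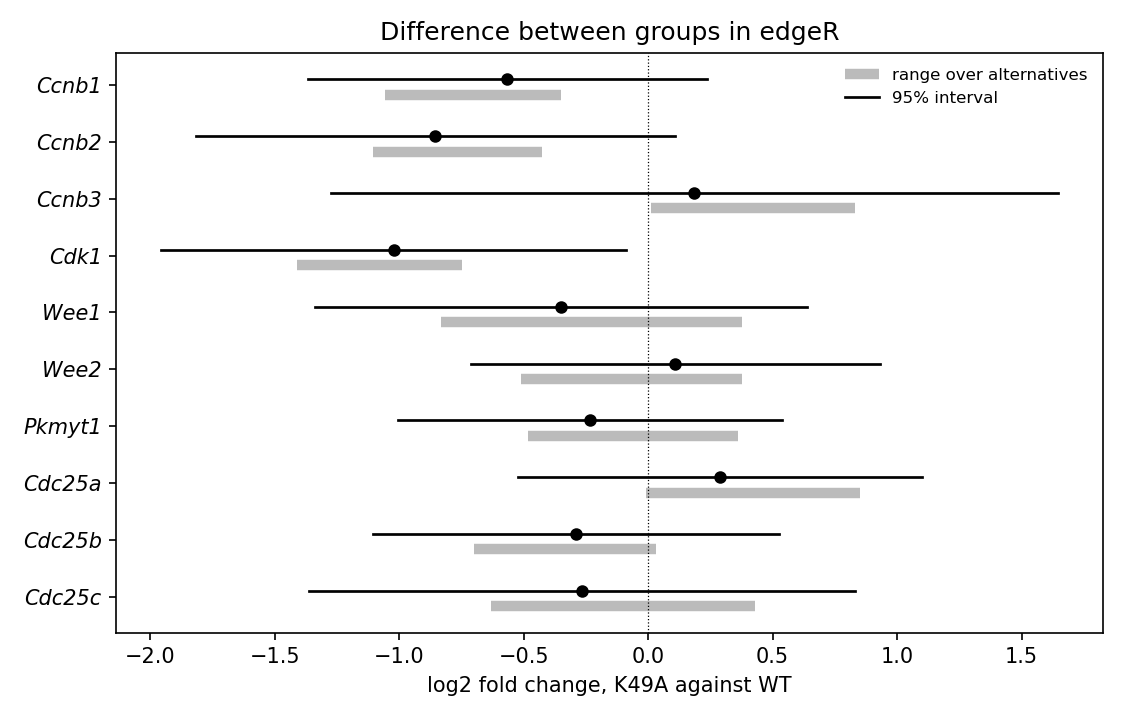
Log2 fold change of each gene in K49A against WT (horizontal axis) from edgeR, with points for the estimate, black lines for its 95% interval and grey bars for the range over the alternative settings and left-out embryos. The grey bars of Ccnb1, Ccnb2 and Cdk1 stay below 0, those of Wee1, Wee2, Pkmyt1, Cdc25a, Cdc25b and Cdc25c cross 0, and none of the 10 genes was called.

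Across embryos, the 10 transcripts did not move as 1 block. Over the 45 pairs of genes the median Spearman correlation of CPM in the 29 embryos was 0.04, 5 pairs reached at least 0.5 and 1 reached -0.5 or less. All embryos share differences in depth and library quality, so these correlations are descriptions. The highest was between Cdk1 and Cdc25c, 0.82 over the 29 embryos and 0.83 over the 24 deeper ones. It was 0.73 within WT (n = 12) and 0.87 within K49A (n = 17). Cdc25c and Cdc25b ran opposite, at -0.57 over all, -0.72 in the deeper libraries, -0.58 within WT and -0.55 within K49A. Cdk1 and Cdc25b were at -0.39 over all, -0.60 in the deeper libraries, -0.78 within WT and -0.34 within K49A.

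A second set of pairs was Wee2 with Cdc25b, and Ccnb2 with Pkmyt1 and Ccnb1. Wee2 and Cdc25b, the kinase and the phosphatase known from oocytes, correlated at 0.68 over the 29 embryos and 0.62 in the deeper 24, with 0.64 within WT and 0.63 within K49A. Ccnb2 and Pkmyt1 were at 0.70 and 0.58. Ccnb1 and Ccnb2 were at 0.63 and 0.59, but at 0.37 within WT against 0.79 within K49A, a difference that was not tested. Ccnb1 and Cdk1, which form the active complex, were at 0.56 and 0.45. Wee1 had no correlation with another of the 10 beyond 0.27 in size over the 29 embryos, but with several of them its values within WT and within K49A had opposite signs. With Ccnb2 they were 0.52 in WT and -0.50 in K49A, with Ccnb1 0.27 and -0.63, with Pkmyt1 0.27 and -0.50, and with Cdc25a 0.60 and -0.37, differences that were not tested.

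**Figure D4:**
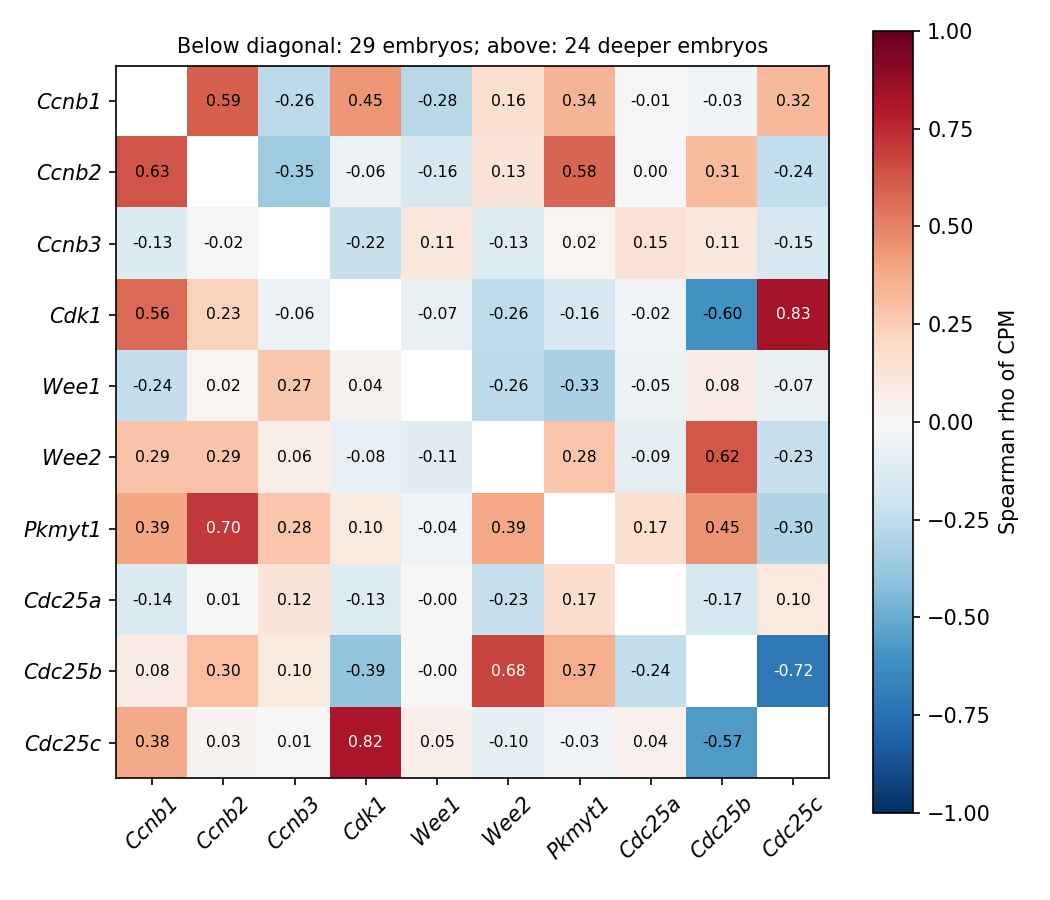
Spearman correlation of CPM between the 10 genes, over all 29 embryos below the diagonal and over the 24 deeper embryos above it, on a colour scale from -1 to 1. The highest value on both sides is that of Cdk1 with Cdc25c, 0.82 and 0.83, and the lowest that of Cdc25b with Cdc25c, -0.57 and -0.72.

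Cdk1 and Cdc25c were high in embryos with high levels of 2-cell activation genes. Their Spearman correlations with the activation score were 0.71 and 0.66 over the 29 embryos, and 0.63 and 0.59 over the 24 deeper ones. With the score of stored oocyte transcripts they ran opposite, at -0.39 and -0.51 over all 29, and at -0.81 and -0.85 in the deeper libraries. Over all 12 WT embryos the values for Cdk1 and Cdc25c were -0.42 and -0.63, and over all 17 K49A embryos -0.21 and -0.28. The deeper libraries were not split by group. Ccnb1 also followed the activation score, at 0.70 and 0.66, with -0.11 and -0.29 for the oocyte score. Cdc25b followed the oocyte score, at 0.51 over the 29 and 0.55 over the deeper 24, and not the activation score, at -0.03 and -0.10. Pkmyt1 was at 0.57 and 0.46 with the oocyte score, and Ccnb2 at 0.48 and 0.32. Correlations with total counts were 0.42 for Cdk1, 0.44 for Cdc25c, 0.45 for Ccnb1 and 0.63 for Pkmyt1 over the 29 embryos. Their part in these relations was not tested beyond the deeper libraries, where they were 0.32, 0.35, 0.33 and 0.39. The activation list itself had 20 of 27 negative fold changes in K49A, against 41.6% of all genes tested. By edgeR 0 of the 27 were called, against 0.0161% of all genes tested. An unadjusted p under 0.05 was reached by 3 of the 27, all negative, against 7.73% of all genes. The median log2 fold change of the 27 was -0.39, against 0.11 over all genes tested.

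K49A replicate 4 lay at the end of this range. It had 6.52 CPM of Cdk1, 0.310 of Cdc25c and 0.310 of Wee1, the lowest of all 29 embryos for each, in a library of 4585539 counts and 16627 detected genes. Its Ccnb1, at 1307 CPM, its Wee2, at 591 CPM, its Pkmyt1, at 162 CPM, and its Cdc25b, at 129 CPM, were above the K49A medians. Its oocyte score, 7.79, was the highest of the 29 embryos, and its activation score, 2.24, the second lowest. The highest Ccnb2 of each group, 282 CPM in WT replicate 20 and 140 CPM in K49A replicate 16, came with 126 and 103 CPM of Cdk1, below the group medians, and with activation scores of 5.45 and 6.41.

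**Figure D5:**
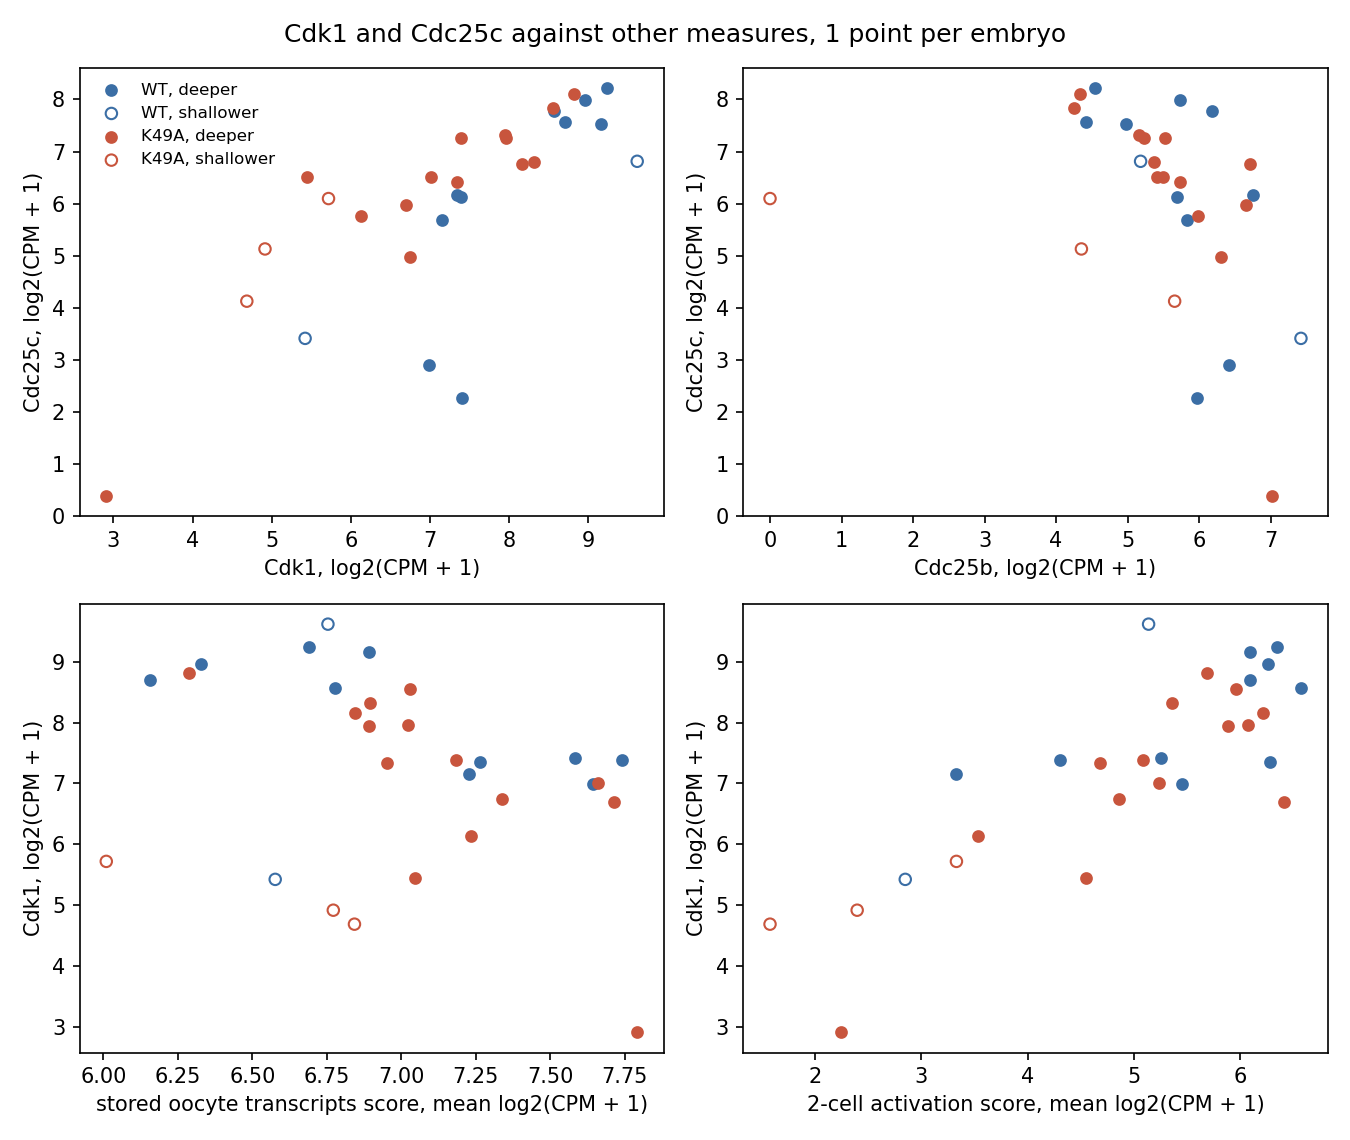
Each point is 1 embryo, filled for the 24 deeper libraries and open for the other 5, coloured by group. The upper panels plot Cdc25c against Cdk1 and against Cdc25b, and the lower panels Cdk1 against the scores of stored oocyte transcripts and of 2-cell activation, all on log2(CPM + 1) scales; in the deeper libraries Cdk1 falls with the oocyte score (-0.81) and rises with the activation score (0.63), and the isolated low point is K49A replicate 4.

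The transcripts whose levels most resembled each gene were named by the highest Spearman correlation over the 29 embryos, among 7788 named genes averaging 10 CPM or more. Cdk1 was nearest to Ppil1 (0.93), a cyclophilin gene, and Dppa4 (0.91), a gene of pluripotent cells. Cdc25c was nearest to Zc3hc1 (0.93) and to the phosphatase gene Ppm1g (0.92). Wee2 was nearest to Khdc1b and Actr1a, both at 0.93, and Cdc25b to Arf3 (0.86) and Ccdc97 (0.83). Ccnb1 was nearest to the cohesin gene Rad21 (0.84) and the RNA-binding protein gene Hnrnpa1 (0.80). Ccnb2 was nearest to Dusp14 (0.89) and Slc25a14 (0.87), and Pkmyt1 to Zfp92 (0.87) and Arhgef39 (0.86). Lower values were found for Wee1, with Spink2 and Bcat2 at 0.72, and for Cdc25a, with Btbd7 (0.64) and Crebbp (0.63). Bcat2, an aminotransferase gene, was 1 of the 2 genes called lower in K49A.

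Other genes of the pathway had fold changes in both directions. Of 73 listed genes, 72 were tested and 35 had a negative fold change, against 41.6% of all genes tested. The median log2 fold change of the 72 was 0.02, against 0.11 over all genes tested. By edgeR 0 of the 72 were called, against 0.0161% of all genes. An unadjusted p under 0.05 was reached by 3 of the 72, against 7.73% of all genes. Among partners of cyclins and Cdks, 5 of 10 were negative (median -0.11). Cdk2, a kinase of S phase, and Cdk7, the kinase that activates other Cdks, had log2 fold changes of -0.59 ± 0.51 and -0.46 ± 0.40. Ccnf, a cyclin of a ubiquitin ligase, was at -0.54 ± 0.53.

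Upstream of Cdk1, 10 of 20 genes were negative (median 0.04). Aurka averaged 297 CPM in WT and 138 in K49A (-1.10 ± 0.46, adjusted p = 0.529, edgeR). Its kinase activates Plk1, whose own transcript averaged 168 and 104 CPM (-0.69 ± 0.36, adjusted p = 0.669). Ywhab, a 14-3-3 protein gene, was at 0.39 ± 0.31. Among genes that destroy cyclin B or hold arrest, 13 of 27 were negative (median 0.01). Subunits of the anaphase-promoting complex, Anapc11 and Anapc13, were at 1.04 ± 0.46 and 1.92 ± 0.86 (adjusted p = 0.546 and 0.552, edgeR), and the checkpoint gene Bub3 at -0.62 ± 0.33. Among regulators of G2/M transcription, 7 of 15 were negative (median 0.04). Lin37, of the DREAM complex that binds the CHR, was at 0.88 ± 0.53, and the NF-Y subunit genes Nfyc and Nfyb were at -0.54 ± 0.35 and -0.76 ± 0.51.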

How the data were processed

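RSEM 1.3.3, STAR 2.7.8a, FastQC 0.11.8 and cutadapt 2.3 are named without roles, and GRCm38 and mm10 as builds, per the submitters' processing notes. The authors deposited an estimated count (RSEM's expected count) for each gene, all whole numbers, so rounding changed none. TPM values deposited by the authors, scaled for transcript length, were used to compare levels between genes. Of the table's entries, 5 named for transgenes held 0 counts in total and were dropped. Gene and well tables were matched to embryos by library name. Positions come from GENCODE M21 on GRCm38. For the counting, annotation release and strand setting: not given in the sources used here.

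Libraries with at least 100000 counts, 29 of 48, entered the tests. Genes passed filterByExpr, library sizes were scaled with TMM, and groups were compared with edgeR 4.0.16 (quasi-likelihood, robust; R 4.3.3), with Benjamini-Hochberg adjustment over 12456 genes at 0.05. Each SE came from the log2 fold change and its F statistic (size over root F), and the 95% intervals use 27 residual degrees of freedom. limma 3.58.1 and DESeq2 1.42.0 served as alternatives, and the fits were first tested on simulated data. Alternatives covered normalization, test, filters, depth, plate column, the dot embryos, TPM pseudocounts of 1 and 0.1, the replicate number as a block, and each embryo left out. The members, lists and tests were chosen with earlier results of these data known. Genes named beside the 10 are the 3 with the smallest p of each pathway list and the 2 most like each gene with a mean of at least 10 CPM. Bcat2 was named by that rule. The closest libraries, K49A replicates 17 and 18, had a chi-square of counts over degrees of freedom of 18.2, so none was treated as a copy of another. This compares them with counting error alone and says nothing of a shared source. Counting error sets a limit in shallow libraries, where 1 count is several CPM.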

Additional observations from a re-analysis of the deposited data

Results flagged for a closer look

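Libraries under 100000 counts entered no comparison, and 2 of them held more than 3 counts of at least 1 of these genes, the upper limit that an observed count of 0 leaves for a true level. WT replicate 3, with 39135 counts in all, held 32 counts of Ccnb1, 11 of Cdc25c and 7 of Wee2. WT replicate 11, with 6969 counts in all, held 30 counts of Wee2 and 0 of the other 9 genes. Over the 12 left-out WT libraries the 10 genes had 92 counts, and over the 7 left-out K49A libraries, which held at most 732 counts each, 0.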

How the results depend on the processing

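None of the 10 genes was called under any alternative that gave it a value. The lowest adjusted p over all alternatives was 0.201, for Cdk1 with no low-count filter. Ccnb1, Ccnb2, Ccnb3 and Cdk1 kept their direction in every alternative run, from -1.06 to -0.35, -1.10 to -0.43, 0.01 to 0.83 and -1.41 to -0.75 (log2). Ccnb3 gave no value among genes with at least 1 TPM in 12 libraries. With the replicate number as a block over 9 shared numbers the signs of Wee1, Wee2 and Cdc25c turned, to 0.23, -0.51 and 0.39, and 1 gene in all was called; the same embryos without the block gave 0.38 for Wee1, -0.28 for Wee2, -0.15 for Cdc25c and 0 calls. The numbers mark only a shared label: deviations of same-numbered embryos correlated from -0.28 to 0.22, 2 of 9 over 0.1, and 1 of 9 WT embryos was closest to its own number. Wee2 also turned with plate column as a factor (-0.22), in TPM with a pseudocount of 1 (-0.39, with or without the filter at 1 TPM) or 0.1 (-0.41), and without K49A replicate 10. Pkmyt1 turned in TPM (0.10 with a pseudocount of 1, with or without that filter, and 0.36 with 0.1). Cdc25b turned at a minimum of 500000 counts (0.032) and in the deeper libraries (0.027), Cdc25a in the deeper libraries (-0.0091) and Cdc25c with limma voom and quality weights (0.43). Among neighbours in level in WT, Cdc25c against Ccnb2 turned in the deeper libraries (-0.25) and Pkmyt1 against Cdc25c with a pseudocount of 0.1 (-0.21). The cause of these changes was not tested. Counts of called genes over the whole table were 77 with DESeq2, 40 with limma voom, 1126 of 30892 with no low-count filter, 5 with at least 1 CPM in 12 libraries, 4 in the deeper libraries and 4 with plate column. Leaving out 1 embryo gave Wee2 from -0.0080 to 0.21, and from 2 to 6 calls over the whole table, with 6 without WT replicate 9, 5 without WT replicate 10 or 15, and 4 without WT replicate 12 or K49A replicate 16. The median log2 fold change of all genes moved from 0.11 to 0.22 with no low-count filter.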
